A study of Homo sapiens with 16 samples.

Results

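The HOXB13 gene lies on human chromosome 17 at 46802127 to 46806111 of the hg19 build, and the peaks called over it and around it were examined in every analysed library of the study. All peaks overlapping chromosome 17 from 46750000 to 46860000, a window of 110 kb, were taken, whatever their height. This gave 79 peaks of the 816313 in the 12 peak lists, namely 68 peaks of fixed width (from ATAC-seq and from ChIP-seq of HOXB13, HDAC3 and HDAC1) and 11 H3K27ac regions of varying width.

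HOXB13 is a homeobox transcription factor that keeps its expression in the adult prostate and in prostate cancer cells, where it binds DNA together with the androgen receptor and other lineage factors. The gene is transcribed from the minus strand, so that its start lies at the upper coordinate. G84E is an inherited missense variant known to raise the risk of prostate cancer. HDAC1 and HDAC3 are histone deacetylases, HDAC3 being the catalytic subunit of the NCoR and SMRT corepressor complexes. H3K27ac is a histone mark of active promoters and enhancers, and ATAC-seq measures DNA that is open to a transposase.

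The study profiled 2 established lines of prostate cancer cells, the androgen-sensitive LNCaP and the androgen-independent PC-3, in 16 samples, of which 12 were analysed here and 4 (H3K27ac in LNCaP) were not analysed here. All LNCaP cells were infected with lentiviral vectors for 7 days. Control cells received the control shRNA vector pGIPZ, knockdown cells received shHOXB13 (an shRNA against HOXB13), and the rescue cells received shHOXB13 plus a second lentivirus, encoding either wild-type HOXB13 (WT) or its G84E form. HOXB13 was profiled in all 4 LNCaP conditions, HDAC3 and ATAC in control and knockdown cells, and HDAC1 in control cells. HOXB13 was also profiled in PC-3 cells with pGIPZ, and H3K27ac in PC-3 cells with pGIPZ or shHOXB13, for which the labels give no duration. The HOXB13 antibody differed between the lines (ab227879 in LNCaP, sc-66923 in PC-3), so HOXB13 levels were not compared between them. The knockdown and the rescue constructs were introduced into cells that still hold their own HOXB13 gene, and no RNA was measured in the files used here.

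Each condition held 1 library of each assay, and no value here has a replicate or a p-value. The level given for each peak is its normalized tag count, that is, mapped reads (tags) in the peak per 10000000 tags of the library. Ranges in parentheses after levels and ratios are exact 95% intervals, which cover counting error only and not the spread between cultures. Libraries held 13.5 to 47.2 M tags (M for mega). Over the whole genome 91430 HOXB13 peaks were called in the LNCaP control, 22864 after knockdown, 190879 with WT and 191796 with G84E. These peaks took up 9.17% of all control tags and 2.13% of all knockdown tags.

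At the start of the gene, control LNCaP cells had a single strong HOXB13 peak. None was called at that position in the knockdown cells, whose nearest peak lay too close for another to be listed there. The control peak spanned 46806019 to 46806309 and so crossed the upper end of the gene. It held 39.9 normalized tags (33.5 to 47.1) and ranked 691 in its list, within the highest 0.756%. It was the strongest control HOXB13 peak of the window. A HOXB13 peak was thus called at the start of the HOXB13 gene in control cells, at a level few sites in that library exceeded.

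PC-3 cells had a HOXB13 peak at the same position, at 46805991 to 46806381. It held 79.5 normalized tags (69.4 to 90.8), within the highest 1.65% of the PC-3 list, and was likewise the strongest PC-3 peak of the window. A HOXB13 peak was therefore called at the position in both cell lines, each with its own antibody and without an input library.

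In the 2 rescue libraries no peak was called at this position, and a pair of peaks stood on its sides instead. The upstream member of the pair lay at 46806433 to 46806707 with WT, its centre 459 bp above the upper end of the gene, and held 39.5 normalized tags (33.6 to 46.1). With G84E the upstream peak lay at 46806414 to 46806696, its centre 444 bp above that end, and held 29.4 (24.6 to 34.9). Between these libraries the ratio of G84E to WT at the upstream peak was −0.43 on the log2 scale (−0.77 to −0.08), at the 25.0th percentile of all peaks shared by WT and G84E, whose median was −0.13. The difference exceeded counting error, and a ratio this low or lower was found at 25.0% of all shared peaks.

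The inner member of the pair lay inside the gene. With WT it spanned 46805436 to 46805710 and held 20.1 normalized tags (16.0 to 25.0). With G84E it spanned 46805437 to 46805719 and held 26 (21.5 to 31.2). The log2 ratio of G84E to WT was 0.37 (−0.05 to 0.80), an interval that includes 0, and its sign was opposite to that at the upstream peak.

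**Figure D1:**
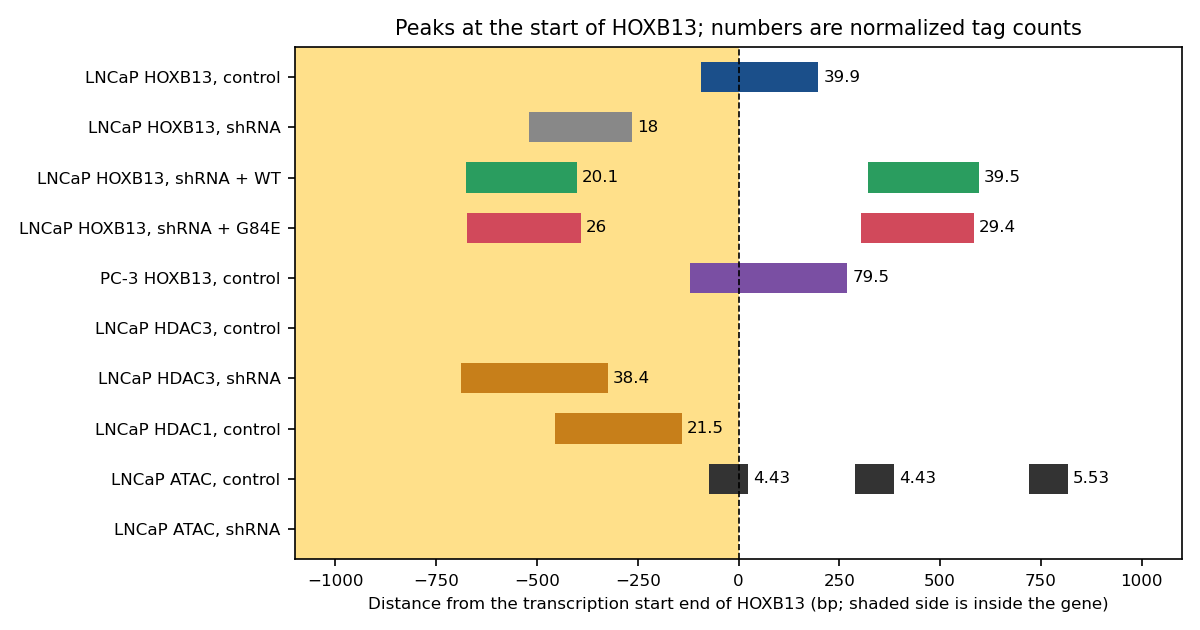
Peaks called within 1100 bp of the start end of HOXB13 in the 10 libraries with peaks of fixed width; the horizontal axis is the distance in bp from that end (shaded: inside the gene), each bar is 1 called peak and the number beside it is its normalized tag count. The control HOXB13 peaks of both cell lines (39.9 and 79.5) lie across the end of the gene, those with WT and G84E lie on both sides of it, and the knockdown HOXB13 and HDAC3 peaks (18 and 38.4) lie inside the gene.

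The site inside the gene was also called in libraries whose cells, by their labels, received no HOXB13 lentivirus. In the knockdown library the only HOXB13 peak of the whole window lay there, at 46805591 to 46805847, with 18 normalized tags (14.4 to 22.3). This peak ranked 416 in the knockdown list, within the highest 1.82%. HDAC1 in control cells had a peak at 46805655 to 46805971 with 21.5 normalized tags (14.5 to 30.7), and HDAC3 in knockdown cells had one at 46805422 to 46805786 with 38.4 (31.3 to 46.6). Together the 5 peaks at the site, from 5 lists, spanned 549 bp, from 689 to 140 bp below the upper end of the gene. No peak was called at this site in the HOXB13 libraries of the LNCaP control and of PC-3, in control HDAC3 or in either ATAC library. In the LNCaP control and PC-3 HOXB13 lists, peak centres could not lie closer than 580 and 780 bp, and their start peaks were centred at 53 and 75 bp from the upper end of the gene, against −392 bp for the knockdown peak. A second peak centred where the knockdown peak was could therefore not have been listed in either, and its absence there is no measure of the signal. The inner peaks with WT and G84E were centred farther in, at −538 and −533 bp. Under the spacing rule a peak centred there could have been listed in the LNCaP control, which had none, but not in PC-3. A peak also had to exceed the surrounding 10000 bp 4-fold, which the inner WT peak did 4.3-fold and the inner G84E peak 6.55-fold. The missing control call is thus no measure of the signal there either.

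A lentiviral HOXB13 coding sequence could in principle add reads over the exons of the gene, and the peaks over the gene were read with that in view. At the inner site the log2 ratio of WT to the knockdown library, which had no such lentivirus, was 0.16 (−0.30 to 0.62), and that of G84E to knockdown was 0.53 (0.11 to 0.95). Relative to the upper end of the gene the peaks compared were centred at −392 bp (knockdown), −538 bp (WT) and −533 bp (G84E), so they overlapped in part only. The medians over all peaks shared by those pairs were 0.23 and 0.16. In normalized tags the WT library thus showed no excess over the knockdown library that exceeded counting error at the site. The G84E library showed a modest one, at the 67.9th percentile of its shared peaks. The G84E ratio was smaller per base (0.39) and when centred on the median of shared peaks (0.37), and the WT ratio was then 0.06 and −0.07. No intervals were computed for these adjusted ratios. Over the lower 3295 bp of the gene no peak of fixed width was called in any of the 10 lists, those with WT and G84E included. The peak lists hold no reads and no exon boundaries of the hg19 build were at hand, so tags that lie on exons outside called peaks were not counted, and the part of lentiviral reads in the inner peaks was not tested.

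The spacing rule of the peak caller bears on this pattern. In each list, peak centres could not lie closer than 512 bp (knockdown), 548 bp (WT) or 566 bp (G84E). The peak of the knockdown library was centred 445 bp from the control start peak, and the nearest WT and G84E peaks 406 and 391 bp from it. In all 3 libraries, therefore, a separate peak at the control position could not have been listed beside the one that was, and the missing call is no measure of the signal there. When a peak centre within that distance counted as a call, 1 of the 12 control peaks of the window was met in the knockdown library (2.22% of all control peaks were), 9 of 12 with WT (70.4%) and 7 of 12 with G84E (66.5%).

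The pattern of a control peak with no overlapping peak but one on each side was looked for over the genome after it had been seen here, with centres within 600 bp on each side. WT peaks stood in this way around 50 of the 91430 control peaks (0.0547%), and G84E peaks around 42 (0.0459%). Both did so around 6 control peaks (0.00656%), and of these the HOXB13 start peak held the most control tags. The arrangement was rare under that rule, but the rule was shaped on this very site. Knockdown peaks stood in this way around 6 control peaks (0.00656%), this one not included.

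Away from the gene, the window held a series of weaker HOXB13 sites that were shared between conditions to different degrees. The control library had 12 HOXB13 peaks in the window, where a stretch of chromosome 17 of that length held 3.66 on average, and 10 of the 12 were above the median level of their list. Overlapping peaks were grouped into 28 loci over the 10 lists of fixed-width peaks. Of these, 16 lay upstream of the gene, 10 downstream and 2 over it, and 12 were seen in 1 list only.

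After knockdown the window held 1 HOXB13 peak, where the average on chromosome 17 was 1.26 for that list. Of the 12 control HOXB13 peaks, 0 were called again after knockdown, where 1.48% of all control peaks were. With WT, 8 of 12 were called again, against 67.4% of all control peaks, and with G84E 6 of 12, against 63.2%. Among the same number of best-scoring peaks from each list (22864), 2 of the 5 control peaks left in the window were called again with WT, against 59.1% of all control peaks so chosen, and 0 of 5 with G84E, against 53.8%. In the better-scoring 50% of every list, 5 of 11 control peaks were called again with WT, against 75.7% of all control peaks there. With G84E the count was also 5 of 11, against 69.9%. The full lists thus gave counts in the window near the share over the genome. In the shortened lists the counts of both WT and G84E fell below that share, over few peaks. Both rescue libraries had 13 peaks in the window, where the chromosome 17 averages were 6.86 and 6.68, and 8 of the 13 WT peaks overlapped a G84E peak (55.0% of all WT peaks did), as 8 of the 13 G84E peaks overlapped a WT peak (54.8%). Seen from the rescue lists, 8 of the 13 WT peaks overlapped a control peak (32.3% of all WT peaks did), and 6 of the 13 G84E peaks did (30.1%).

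**Figure D2:**
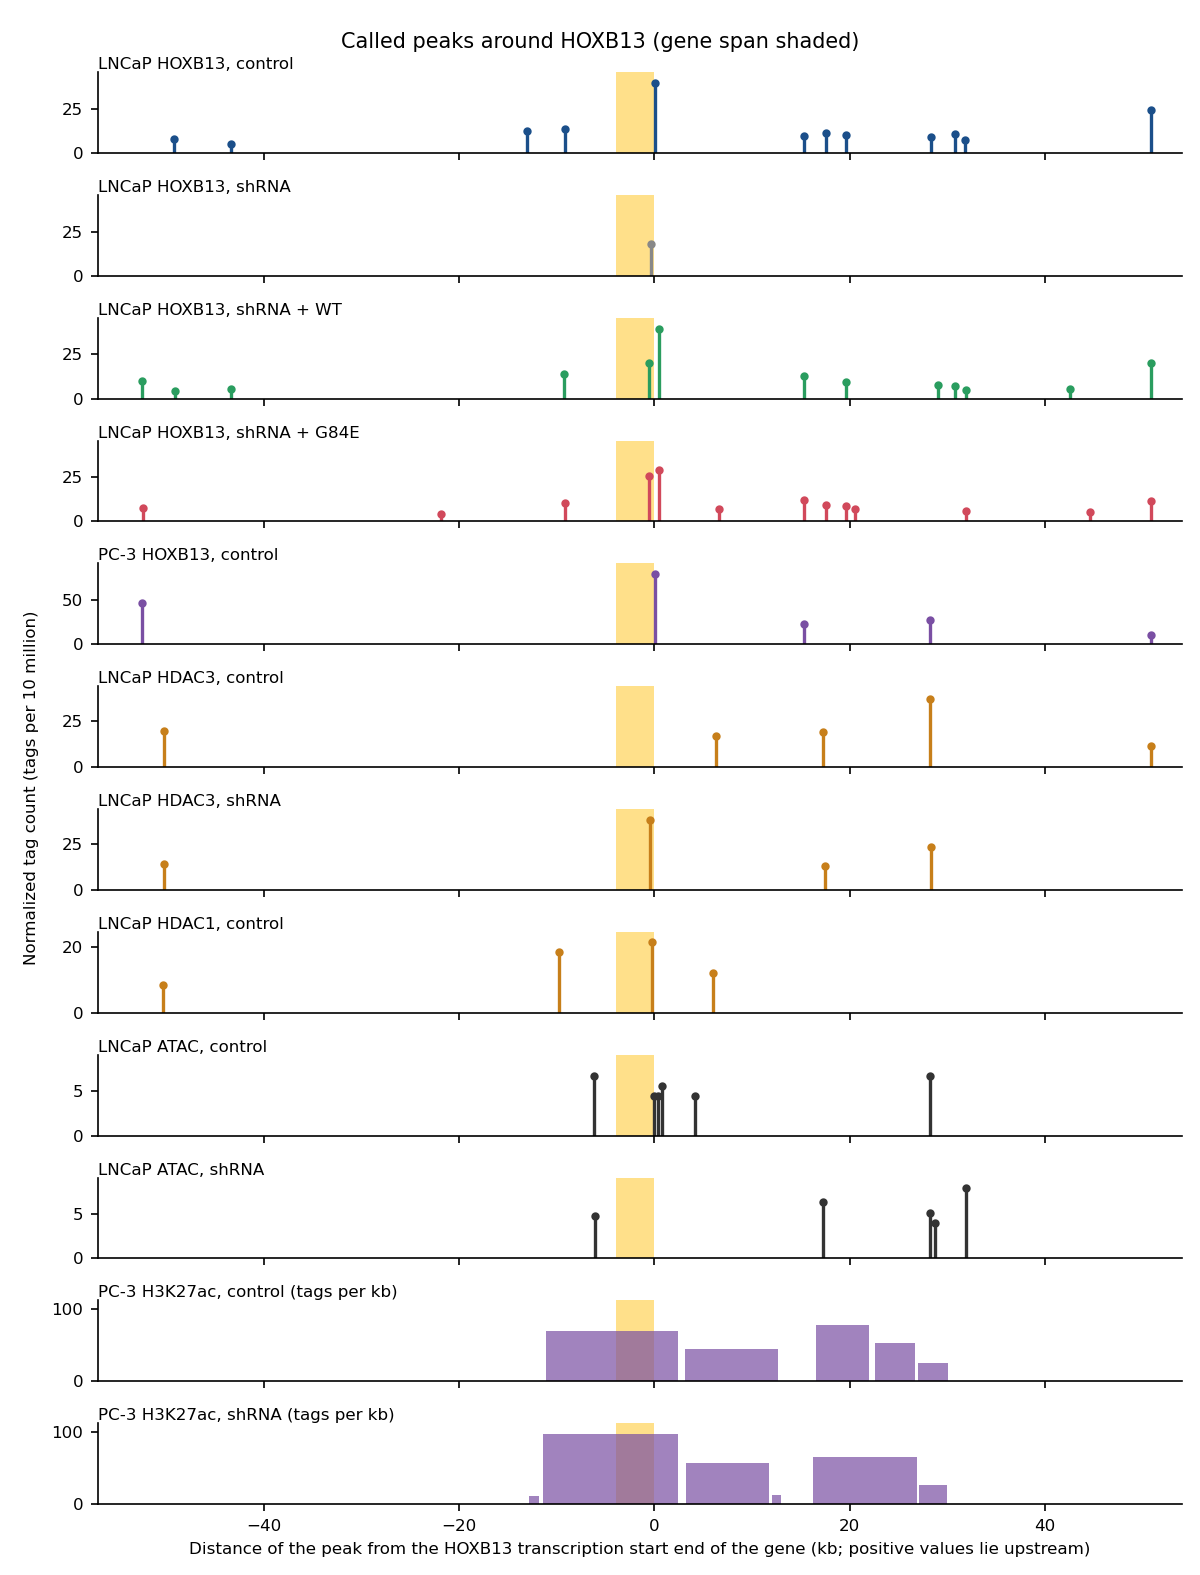
All called peaks of the window in the 12 libraries; the horizontal axis is the distance in kb from the start end of HOXB13 (positive upstream, gene shaded), and the height is the normalized tag count, or tags per kb for the H3K27ac regions, whose widths are drawn to scale. The knockdown HOXB13 library has 1 peak, inside the gene, against 12 in the control and 13 each with WT and G84E; the chromosome 17 averages of these lists for the same length are 1.26, 3.66, 6.86 and 6.68.

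Besides the start of the gene, the site with the most HOXB13 signal in the control lay farthest upstream, 50.8 kb from the gene's start at 46856695 to 46857165. The control held 24.2 normalized tags there (19.2 to 29.9), within the highest 3.23% of its list. The WT library held 19.9 and the G84E library 11.5. Its authors' fold over the surrounding sequence was 22.78 in the control, 22.54 with WT and 11.3 with G84E.

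The G84E to control log2 ratio at this upstream site was −1.07 (−1.60 to −0.55), a value that 2.61% of all shared peaks reached or fell below. The WT to control ratio was −0.28 (−0.74 to 0.18), and the G84E to WT ratio was −0.79 (−1.32 to −0.26), which 7.26% of shared peaks reached or fell below. Shared peaks had to be called in G84E, at 4.30 normalized tags or more. Weak peaks of the control and WT lists, whose medians were 7.28 and 6.46, could therefore not show ratios this low. Both percentages thus make this strong site look rarer than a comparison with peaks of like level might. Here the G84E level was lower than both others beyond counting error, whereas the interval for WT over control included 0. Peaks at the site were also called for PC-3 HOXB13 (10.8 normalized tags) and control HDAC3 (11.6), and no HDAC3 peak was called there after knockdown.

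Another 4 loci were called in control, WT and G84E alike, with smaller differences between them. At 9.2 kb below the gene's start, which lies beyond the lower end of the gene, the control held 13.4 normalized tags, WT 14.2 and G84E 10.4. At 15.3 kb upstream the values were 9.31, 12.9 and 12.2, and PC-3 HOXB13 held 22.8. At 19.6 kb upstream they were 9.89, 9.19 and 8.83, and at 31.9 kb 7.28, 4.72 and 5.66. The intervals of the log2 ratios at these 4 loci all included 0.

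Across the window the median log2 ratio of WT to control was −0.19, with 5 of 8 shared peaks lower in WT, where 38.1% of all shared peaks were lower and the median was 0.17. For G84E to control it was −0.31, with 5 of 6 lower, against 48.6% and a median of 0.02. For G84E to WT it was −0.21, with 6 of 8 lower, against 59.9% and a median of −0.13. The window thus leaned lower in both rescue libraries than the genome did, over very few peaks. Control peaks of the window were also stronger (median 10.3) than those of the whole list (7.28). The values over the genome were not matched for level, so the part of level in this lean was not tested.

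**Figure D3:**
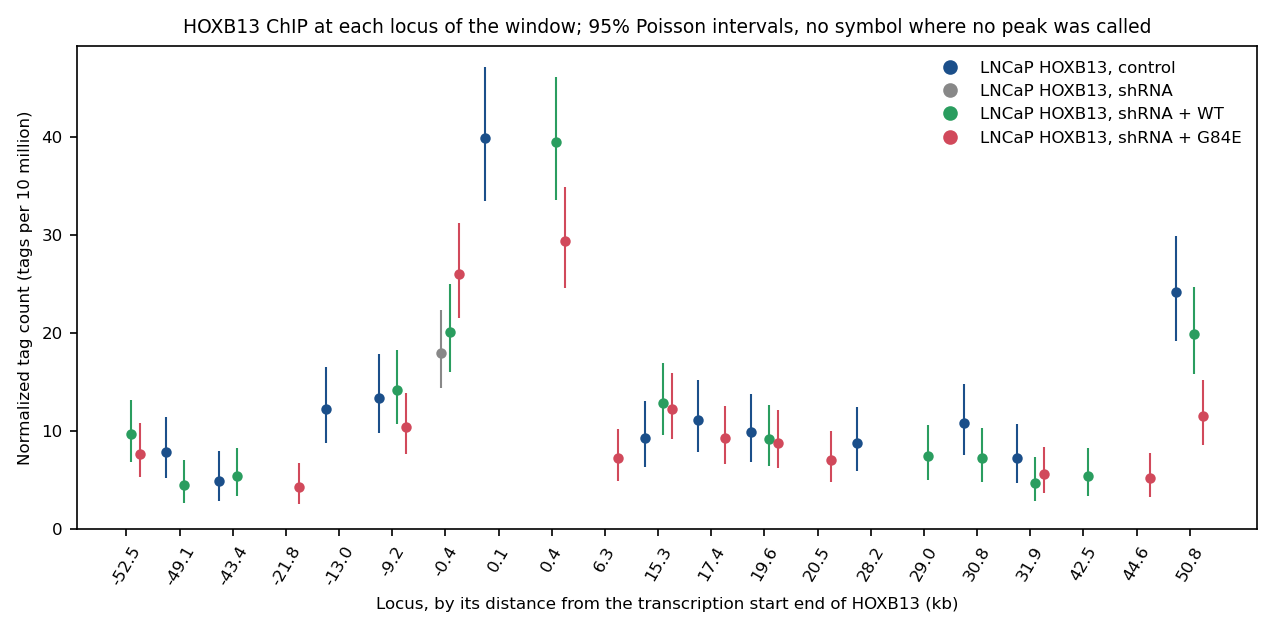
HOXB13 ChIP-seq levels in the 4 LNCaP libraries at each locus of the window; the horizontal axis lists loci by distance in kb from the start of HOXB13, the vertical axis is the normalized tag count, and bars are exact 95% Poisson intervals. At the locus 50.8 kb upstream the G84E level (11.5) is below those of the control (24.2) and WT (19.9), and the knockdown library has a single point, inside the gene.

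PC-3 cells had 5 HOXB13 peaks in the window, where the chromosome 17 average of that list was 2.99. Sites of PC-3 cells coincided with those of LNCaP at 4 of these 5 peaks, where 27.2% of all PC-3 peaks overlapped a LNCaP control peak. In turn 4 of the 12 control LNCaP peaks met a PC-3 peak (21.1% of all control peaks did). Of the 5 PC-3 peaks, 3 met a WT peak (38.9% of all PC-3 peaks did) and 3 a G84E peak (36.0%). The exception lay 52.5 kb below the gene's start, at 46753416 to 46753848, where PC-3 held 47 normalized tags (39.3 to 55.8). No control LNCaP peak was called there, but WT (9.68) and G84E (7.69) each had one. The PC-3 peaks at the start of the gene, 15.3, 28.2 and 50.8 kb upstream were thus those shared with the LNCaP control.

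HDAC3 was called over the gene itself in knockdown cells and not in control cells. The knockdown peak inside the gene, with 38.4 normalized tags, ranked 540 in its list, within the highest 1.74%. The control library had no HDAC3 peak within the gene, and its nearest peak centre lay 6809 bp away. Among the 14809 knockdown peaks that overlapped no control peak, it ranked 52 (0.351%), and the median of those peaks was 10.3. The lowest level that could be called in the control list was 7.42 normalized tags, and a filter against the surrounding sequence removed 30.8% of candidate control peaks and 34.6% of candidate knockdown peaks. The peak caller estimated DNA fragments of 146 bp for the control and of 364 bp for the knockdown, and the part of that difference in this call was not tested.

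At the flanking HDAC3 sites called in both libraries, normalized tags were lower after knockdown, as they were at most shared peaks over the genome. The window held 5 control and 4 knockdown HDAC3 peaks, where the chromosome 17 averages were 2.13 and 2.04. Of the 5 control peaks, 3 were called again after knockdown (47.7% of all control peaks were), and all 3 held fewer normalized tags, as did 80.3% of all shared peaks. The strongest, 28.2 kb upstream at 46834074 to 46834571, held 37.1 normalized tags in control cells against 23.2 in knockdown cells, which is a log2 ratio of −0.68 (−1.18 to −0.18). The median over all shared HDAC3 peaks was −0.44, this peak was at the 32.8th percentile, and centred on that median its ratio was −0.24. The others held 19 and 13.3 at 17.4 kb upstream (−0.51, −1.21 to 0.17) and 19.5 and 14.4 at 50.2 kb below the start (−0.44, −1.10 to 0.24). Knockdown peaks were also narrower (365 bp against 471 bp), and per base the log2 ratios were −0.31, −0.15 and −0.07. The median per base over all shared HDAC3 peaks was −0.07. The HDAC3 peak inside the gene was called after knockdown alone, so it has no ratio to set beside these 3. Its fold over the surrounding sequence was 4.82, where 4 was required for a call.

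The locus 28.2 kb upstream was called in 6 lists, more than any other locus of the window. It held control HOXB13 (8.73 normalized tags), PC-3 HOXB13 (27.8), HDAC3 in both conditions, and ATAC in both conditions (control 6.64, knockdown 5.1; log2 ratio −0.38, −1.48 to 0.65). No HOXB13 peak overlapped it with WT or with G84E. Of the 12 control HOXB13 peaks, 3 overlapped a control HDAC3 peak (13.4% of all control peaks did), 2 an ATAC peak (10.3%) and 0 an HDAC1 peak (1.94%). From the other side, 3 of 5 control HDAC3 peaks overlapped a control HOXB13 peak (36.1% of all HDAC3 peaks did), and 2 of 6 control ATAC peaks did (26.1%). After knockdown 2 of 4 HDAC3 peaks lay on a control HOXB13 peak (27.7%).

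The HDAC1 library of control cells had 4 peaks in the window (chromosome 17 average 1.32), 2 of which overlapped an HDAC3 peak of the control (42.4% of all HDAC1 peaks did) and 2 an HDAC3 peak of the knockdown (35.5%). The 4 HDAC1 peaks overlapped 0 control HOXB13 peaks (10.7% of all HDAC1 peaks did). Besides the peak inside the gene, these lay 50.2 kb below the start (8.6 normalized tags), 9.8 kb below it (18.6) and 6.3 kb upstream (12.2). At 6.3 kb upstream, control HDAC3 (17.2) and G84E HOXB13 (7.24) also had peaks. HDAC1 was not profiled after knockdown in the libraries used here.

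ATAC peaks at the start of the gene were called in the control and not after knockdown. Control cells had ATAC peaks across the upper end of the gene (46806038 to 46806134; 4.43 normalized tags) and at 46806401 to 46806497 (4.43), the first within the control HOXB13 peak and the other overlapping the upstream WT and G84E peaks. Further control peaks stood at 46806831 to 46806927 (5.53) and at 46810219 to 46810315 (4.43). Knockdown cells had none of these, and 1 of 6 control ATAC peaks was called again, where 50.0% of all control peaks were. Of the 5 knockdown ATAC peaks, 1 overlapped a control peak (61.9% of all knockdown peaks did).

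The window held 6 ATAC peaks in the control and 5 after knockdown, where the chromosome 17 averages were 2.15 and 1.75. The ATAC peaks at the start were weak. Those beginning at 46806038 and 46806401 had a fold over the surrounding sequence of 4.01 and 4.02, where 4 was required for a call. The start peak held 16 tags, giving an interval of 2.53 to 7.19 normalized tags, which includes 3.92, the lowest level the knockdown list could call. A loss of this peak was therefore not detectable at this depth. Downstream of the gene the control had a peak 6.2 kb below the start (6.64) and the knockdown library one 6.1 kb below it (4.71), which lay beside each other without overlap. The knockdown list alone had peaks 17.4 kb upstream (6.28), within the locus of HOXB13 and HDAC3, and 31.9 kb upstream (7.85).

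In PC-3 cells the gene lay inside an H3K27ac region that was among the broadest of the genome. The control region ran from 46795016 to 46808548, 7111 bp beyond the lower end of the gene and 2437 bp beyond the upper, and its width of 13532 bp was within the highest 0.524% of the list. It held 945.6 normalized tags (897 to 996), within the highest 0.477%. After knockdown the region ran from 46794718 to 46808495 and held 1345.9 normalized tags (1285 to 1409).

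The log2 ratio of knockdown to control in this whole region was 0.51 (0.41 to 0.61), and per base 0.48. The median over all 37733 linked regions was 0.27, with 5% of them below −0.73 and 5% above 1.18, while regions took up 38.87% of all control tags and 46.24% of all knockdown tags. The region extends beyond both ends of the gene, and no value was obtained for the gene alone. H3K27ac in the region that includes HOXB13 was higher in the knockdown library, at the 68.8th percentile of all linked regions. That library as a whole had more of its tags in regions, and the part of this in the result was not tested.

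The next regions upstream differed less. From 46809240 to 46819107 the normalized tags were 429.7 (control) and 491 (knockdown), with a log2 ratio of 0.19 (0.03 to 0.35). From 46822295 to 46832952 they were 648.9 and 697.4 (0.10, −0.03 to 0.23), and from 46833039 to 46836130 79.5 and 76.2 (−0.06, −0.46 to 0.33). All 5 control regions of the window were called again after knockdown (79.4% of all control regions were), and 5 of the 6 knockdown regions met a control region (80.1%). Of the 4 linked regions present in both libraries, the one over the gene had the highest ratio.

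**Figure D4:**
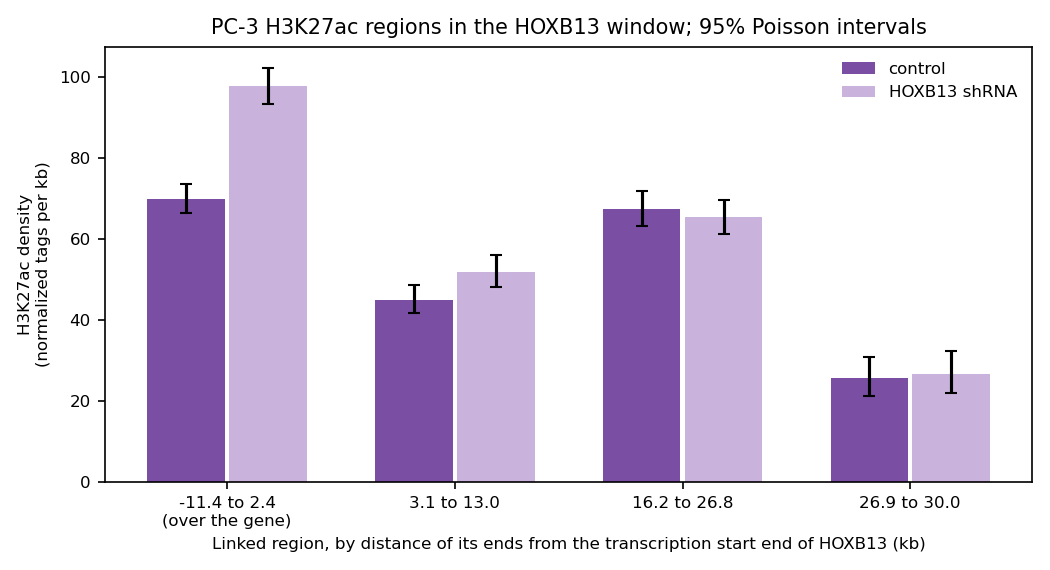
H3K27ac density in PC-3 cells over the 4 linked regions of the window present in both libraries; the horizontal axis gives the distance of the ends of each from the start of HOXB13 in kb, bars are normalized tags per kb in the control and HOXB13 shRNA libraries, and whiskers are exact 95% Poisson intervals. Density in the region that includes the gene is 69.9 in the control and 97.7 with the shRNA, and the other 3 regions differ less.

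H3K27ac and HOXB13 did not always coincide in PC-3 cells. Of the 5 PC-3 HOXB13 peaks, 2 lay in an H3K27ac region of the control (34.5% of all PC-3 peaks did), namely those at the start of the gene and 28.2 kb upstream. The peaks at 15.3 kb and 50.8 kb upstream and 52.5 kb below the start lay in none. Of the 28 loci, which came mostly from LNCaP lists, 16 met a PC-3 control H3K27ac region, and the same number a knockdown region. Those regions covered 32.5% of the window in the control and 34.3% after knockdown. No share over the genome was obtained for such loci, so the count is no measure of acetylation at them.

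In the order of genes in RefSeq (GRCh38), HOXB13 lies between MIR3185, PRAC1 and PRAC2 on the downstream side and 2 lncRNA genes (LOC105371811 and LOC105371812) and TTLL6 on the upstream side. PRAC1 and PRAC2 are small genes known for expression in prostate and distal colon. The HOXB13-type motifs CCAATAAA and CTCGTAAA, searched by their exact letters on both strands in RefSeq promoter sequences (GRCh38, all of the same length around each start), were in 0.934% and 0.137% of 35116 promoters. Neither was found in the 5 promoter entries of PRAC1, PRAC2 and TTLL6 (0 for each motif), which says little where so few of all promoters hold them. No promoter sequence of HOXB13 itself was at hand.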

How the data were processed

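Groups came from the labels. Members, loci and lists were chosen with earlier results of these data known. The submitters' processing notes name Bowtie2, HOMER 4.2 and hg19. The authors ran findPeaks on each library, without an input library per the file headers, at a false discovery rate of 0.001. In factor style (10 lists), peaks also had to exceed the surrounding 10000 bp 4-fold (local Poisson p of 0.0001), and H3K27ac (2 lists) used histone style from 1000 bp windows. The signal used is the deposited normalized tag count. The deposited findPeaks score only ranked peaks for the better-scoring 50%, and the deposited fold over local background only described peaks.

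Tags were recovered as the normalized tag count times the library total over 10000000, and values under 10 were whole within 0.1 tags (100%). Poisson intervals and Clopper-Pearson intervals of ratios used Python 3.11.15 and scipy 1.17.1, and were tested on simulated data. An overlap of at least 1 bp made peaks shared, and the highest was taken where several did. Loci named were those over or within 5 kb of the gene, those in 3 or more lists, and the strongest peak of each library. The replicate spread is unknown. Alternatives were other overlap rules, stricter lists, equal numbers of peaks, tag density, centring and a narrower window. The spacing and flanking rules were added after seeing the data.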

Additional observations from a re-analysis of the deposited data

How the results depend on the processing

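No paired analysis was possible because each group held 1 library. Of 81 recomputed values for 32 results, 61 stayed in direction and within the stated margin, 18 moved and 2 changed sign. Control HOXB13 peaks called again became 1 after knockdown when a centre within the list's minimum distance counted (a rule added after seeing the data), 5 of 11 with WT in the better-scoring 50% of every list (75.7% of all control peaks there), and 2 of 5 with WT (59.1%) and 0 of 5 with G84E (53.8%) at equal numbers of peaks (22864). In the better-scoring 50%, the window held 2 ATAC knockdown, 1 HDAC1, 3 HDAC3 control, 3 H3K27ac control and 1 H3K27ac knockdown peaks. Within 20 kb of the gene it held 2 ATAC knockdown, 2 HDAC3 control, 2 HDAC3 knockdown, 6 control HOXB13, 8 G84E, 5 WT, 3 H3K27ac control and 2 PC-3 HOXB13 peaks; these windows are shorter by construction. Inside the gene the log2 ratio of WT to knockdown was −0.07 when centred on the median of shared peaks. The H3K27ac log2 ratio summed over the window was 0.32, 0.24 per base and −1.74 in the better-scoring 50%, where 3 control regions and 1 knockdown region remained and the knockdown region over the gene was not among them.

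Depth limits the ATAC and HDAC1 peaks of the window, which held 10 to 24 and 12 to 30 tags; 1 HDAC1 peak lay at the calling threshold of 12 tags. Ratios between called peaks leave out sites where 1 list has no call, and a missing call is not a level of 0. With 1 library a condition, differences between conditions and between cultures cannot be told apart.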
